A study of Mus musculus with 12 samples.

Results

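The transcripts described here encode the catalytic subunits of the proteasome and the subunits of its 11S activators: the interferon-inducible catalytic subunits Psmb8, Psmb9 and Psmb10, their constitutive counterparts Psmb5, Psmb6 and Psmb7, and the activator subunits Psme1, Psme2 and Psme3. They were chosen by gene symbol and make up 9 of the 54532 genes of the count table. All 9 passed the filter on low counts that left 16164 tested genes. RNA was measured in 12 tumour libraries from mice labelled male. The mice had received intradermal injections of B16F10, a mouse melanoma line that makes pigment, in each leg, and the injected cells were wild type. The 6 iKO libraries came from hosts with both Trex1 copies floxed (Trex1 fl/fl R26CreERT2), and the 6 Ctrl libraries from hosts with 1 floxed and 1 intact copy (Trex1 fl/wt R26CreERT2). Trex1 encodes a DNA exonuclease of the cytosol. Every host was 8 to 12 weeks old, carried the tamoxifen-activated Cre recombinase in the Rosa26 locus, which is active in many cell types, and received 1 mg of tamoxifen on each of 3 days from day 5. Tumours were taken on day 14. They were digested and sorted against CD45, which marks leukocytes, and CD31, which marks endothelium. The label for cell type requires both to be absent, whereas the protocol joins them with "or". The implanted cells kept their own Trex1, so the comparison asks how the tumour differs when the host loses the gene. Trex1 itself had 0 counts in all 12 libraries, which leaves the genotypes unchecked by its own transcript.

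The proteasome is the protease that cuts most cytosolic and nuclear proteins into peptides, some of which are carried into the endoplasmic reticulum and shown to CD8 T cells on class I major histocompatibility molecules. Its barrel-shaped 20S core holds the active sites β1 (Psmb6, cutting after acidic residues), β2 (Psmb7, after basic residues) and β5 (Psmb5, after hydrophobic residues). In cells exposed to interferon-γ, newly built cores take up β1i (Psmb9), β2i (Psmb10) and β5i (Psmb8) instead and are called immunoproteasomes, which most leukocytes carry without stimulation. The 11S activators cap the core: PA28α (Psme1) and PA28β (Psme2) form a mixed cytosolic ring that interferon-γ induces, whereas PA28γ (Psme3) forms a ring of its own in the nucleus and is not an interferon target.

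Libraries held 29.8 to 35.5 M counts in iKO and 34.3 to 45.8 M in Ctrl, and the 9 transcripts had between 627 and 11655 counts in a library, so counting error was small beside the spread between libraries. Pigment cell markers summed to 15053 to 21454 CPM (counts over the scaled library total, times 1e6) in iKO against 21548 to 21937 CPM in Ctrl, and 6 of 7 were lower in iKO. All 12 libraries thus held much melanoma RNA. Despite the sort, leukocyte RNA was also present: 12 leukocyte markers summed to 464 to 2532 CPM in iKO and 303 to 520 CPM in Ctrl. Of the 12, 11 rose, with a median log2 fold change over all of 5.04. Arhgdib, the marker that did not rise, made up much of the Ctrl sums, at a mean of 248 CPM in Ctrl and 244 CPM in iKO. Ptprc, which encodes CD45 itself, averaged 191 CPM in iKO and 3.104 CPM in Ctrl, and its log2 fold change was 5.98 (edgeR, adjusted p = 0.00244). The mean log2 CPM of these markers, called the leukocyte score below, was 4.01 in iKO 1, 6.52 to 7.35 in the other iKO libraries, 4.19 in Ctrl 5 and 0.613 to 1.97 in the other Ctrl libraries. Fibroblast markers summed to 597 to 14642 CPM in iKO and 2262 to 2584 CPM in Ctrl (1 of 7 higher). Keratinocyte markers summed to 7.44 to 207 CPM in iKO and 2.62 to 4.35 CPM in Ctrl (4 of 4 tested higher). Both upper iKO values came from iKO 2. In the other iKO libraries keratinocyte markers summed to 7.44 to 17.9 CPM, while fibroblast markers also reached 10115 CPM in iKO 5. Endothelial markers summed to 20.2 to 56.6 CPM in iKO and 20.5 to 27.0 CPM in Ctrl (3 of 7 higher, 1 lower). Beside these marker counts, 25.0% of all tested genes were called higher in iKO and 21.4% lower (edgeR, adjusted p under 0.05). The fibroblast count is not above that share. Krt1, a keratinocyte marker that was not tested, was at 0 in all Ctrl libraries. All hosts are labelled male, yet Xist, the RNA of the silenced X chromosome, stood at 219 CPM in iKO 2 and 117 CPM in iKO 3, against 8.39 CPM or less elsewhere. Counts of 4 Y-linked genes summed to 44 in iKO 2 and 0 in iKO 3, against 107 to 1513 elsewhere. The reason for this conflict with the label was not tested. These are bulk libraries, in which a change in the number of cells of a type and a change in RNA per cell cannot be told apart.

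The inducible catalytic subunits all rose in iKO tumours and were the most changed of the 9 transcripts. Psmb8 was 6.21-fold, Psmb9 4.72-fold and Psmb10 2.56-fold higher, and for each of them every iKO library lay above every Ctrl library. Over the 9 transcripts, 5 were called higher and 3 lower (edgeR quasi-likelihood test, adjusted p under 0.05), beside 25.0% of all tested genes called higher and 21.4% called lower. In 4 of the 9 all iKO libraries lay above all Ctrl libraries and in 1 all lay below, beside 11.8% and 11.1% of all tested genes.

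Psmb8 (ENSMUSG00000024338, mm10 chromosome 17, 34197721 to 34201454, plus strand) encodes β5i and lies in the class II region of the major histocompatibility complex, between the peptide transporter genes Tap1 and Tap2. It stood at 68.4, 145, 112, 118, 95.6 and 142 CPM in iKO 1 to 6, against 15.4, 14.8, 18.1, 18.3, 25.5 and 17.6 CPM in Ctrl 1 to 6. The lowest iKO value, in iKO 1, was still well above the highest Ctrl value, in Ctrl 5. The means were 113 ± 28.9 CPM in iKO and 18.3 ± 3.81 CPM in Ctrl (SD, n = 6 each), a log2 fold change of 2.63 ± 0.19 (SE; edgeR, adjusted p = 1.48e-06). Of its 3381 exon bases in GENCODE M21, 498 (14.7%) lie opposite the antisense gene Gm20496, and the libraries kept no strand, so reads there could belong to either. The count table gives Psmb8 a length of 2736 bases, so the share in the counted exons may differ. The stretch around its start is shown because the gene rose most; RefSeq places that start inside the gene interval of the table. The window runs from 250 bases before to 50 after it (RefSeq, GRCm38.p6, chr17:34197945-34198244, plus strand), and capitals mark the only match to the 2 motifs searched.
Psmb8: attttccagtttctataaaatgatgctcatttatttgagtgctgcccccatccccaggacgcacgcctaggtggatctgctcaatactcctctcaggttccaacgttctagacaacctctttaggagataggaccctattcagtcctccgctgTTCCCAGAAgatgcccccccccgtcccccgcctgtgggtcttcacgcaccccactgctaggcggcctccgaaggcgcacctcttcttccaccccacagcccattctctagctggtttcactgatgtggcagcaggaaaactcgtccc
The motifs were the core of the interferon-stimulated response element (GAAA, any 2 bases, GAAA) and that of the gamma-activated site (TTCNNNGAA), each on both strands. The match is TTCCCAGAA, a gamma-activated site core that begins 97 bases before the RefSeq start. Such a match occurs in 2722 of 32817 promoter windows (8.29%) and is a description of the letters, not evidence of binding.

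Psmb9 (ENSMUSG00000096727, mm10 chromosome 17, 34181988 to 34187764, minus strand) encodes β1i and lies on the other side of Tap1. It had 83.7, 183, 125, 113, 123 and 164 CPM in iKO 1 to 6, against 23.1, 27.2, 27.8, 31.1, 34.1 and 24.8 CPM in Ctrl 1 to 6. Here too iKO 1 was lowest in its group, Ctrl 5 highest in its own, and the groups did not overlap. The means of 132 ± 36.0 CPM in iKO and 28.0 ± 4.04 CPM in Ctrl (SD, n = 6 each) gave a log2 fold change of 2.24 ± 0.18 (SE; edgeR, adjusted p = 2.34e-06). Its window (RefSeq, GRCm38.p6, chr17:34187281-34187580, minus strand) is shown because it is also, read the other way, most of the window of Tap1, which encodes a subunit of the peptide transporter and rose with it. The windows of both genes share 275 bases, chr17:34187306-34187580, which are the first 275 of the letters below.
Psmb9: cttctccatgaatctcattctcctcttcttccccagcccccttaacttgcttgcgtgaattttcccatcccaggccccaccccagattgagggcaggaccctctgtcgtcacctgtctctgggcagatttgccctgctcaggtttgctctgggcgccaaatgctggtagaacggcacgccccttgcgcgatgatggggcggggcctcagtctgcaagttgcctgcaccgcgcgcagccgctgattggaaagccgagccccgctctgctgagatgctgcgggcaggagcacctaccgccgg
Neither motif occurs in these letters, which says nothing of other sequence. The genes also share 212 exon bases on opposite strands, 5.79% of those of Psmb9, so a small part of the reads of each cannot be assigned.

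Psmb10 (ENSMUSG00000031897, mm10 chromosome 8, 105935735 to 105938444, minus strand) encodes β2i and lies outside the major histocompatibility complex. Its values were 121, 185, 146, 131, 164 and 191 CPM in iKO 1 to 6 and 56.3, 56.5, 60.3, 64.1, 79.2 and 50.1 CPM in Ctrl 1 to 6. All iKO libraries were above all Ctrl libraries, with the smallest gap again between iKO 1 and Ctrl 5. It averaged 156 ± 28.6 CPM in iKO and 61.1 ± 10.03 CPM in Ctrl (SD, n = 6 each), a log2 fold change of 1.35 ± 0.13 (SE; edgeR, adjusted p = 8.33e-06). In Ctrl it was the most abundant inducible transcript per exon length, at 35.8 CPM per kb, while Psmb9 had 7.65 and Psmb8 6.68 CPM per kb.

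The constitutive catalytic subunits moved the other way and by little. Psmb5 and Psmb7 fell, whereas Psmb6 did not pass the test. Psmb5 (ENSMUSG00000022193, mm10 chromosome 14, 54614119 to 54618022, minus strand), which encodes β5, had 71.5, 69.9, 72.6, 57.7, 71.6 and 81.1 CPM in iKO 1 to 6, against 81.7, 81.3, 90.7, 102, 110 and 83.1 CPM in Ctrl 1 to 6. The groups did not overlap, but iKO 6 nearly reached the lowest Ctrl library. Its means were 70.7 ± 7.52 CPM in iKO and 91.5 ± 12.1 CPM in Ctrl (SD, n = 6 each), a log2 fold change of -0.37 ± 0.09 (SE; edgeR, adjusted p = 0.00473). The microRNA gene Mir686 lies within 109 of its exon bases (12.1%).

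Psmb7 (ENSMUSG00000026750, mm10 chromosome 2, 38588036 to 38644087, minus strand), which encodes β2, ranged from 88.4 to 116 CPM in iKO (median 106) and from 113 to 143 CPM in Ctrl (median 121). The groups overlapped where iKO 6 exceeded 3 Ctrl libraries. It averaged 105 ± 9.54 CPM in iKO and 124 ± 11.8 CPM in Ctrl (SD, n = 6 each), a log2 fold change of -0.24 ± 0.08 (SE; edgeR, adjusted p = 0.0160). This call was lost without Ctrl 3 (edgeR, adjusted p = 0.0502), Ctrl 4 (0.0673) or Ctrl 5 (0.0549), and 11.8% of its exon bases lie opposite those of the kinase gene Nek6. Psmb6 (ENSMUSG00000018286, mm10 chromosome 11, 70525367 to 70527858, plus strand), which encodes β1, ranged from 120 to 157 CPM in iKO (median 132) and from 132 to 182 CPM in Ctrl (median 148). The ranges overlapped over most of their width. Its log2 fold change was -0.15 ± 0.08 (SE; edgeR, adjusted p = 0.169), with means of 136 ± 14.3 CPM in iKO and 150 ± 17.4 CPM in Ctrl (SD, n = 6 each).

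**Figure D1:**
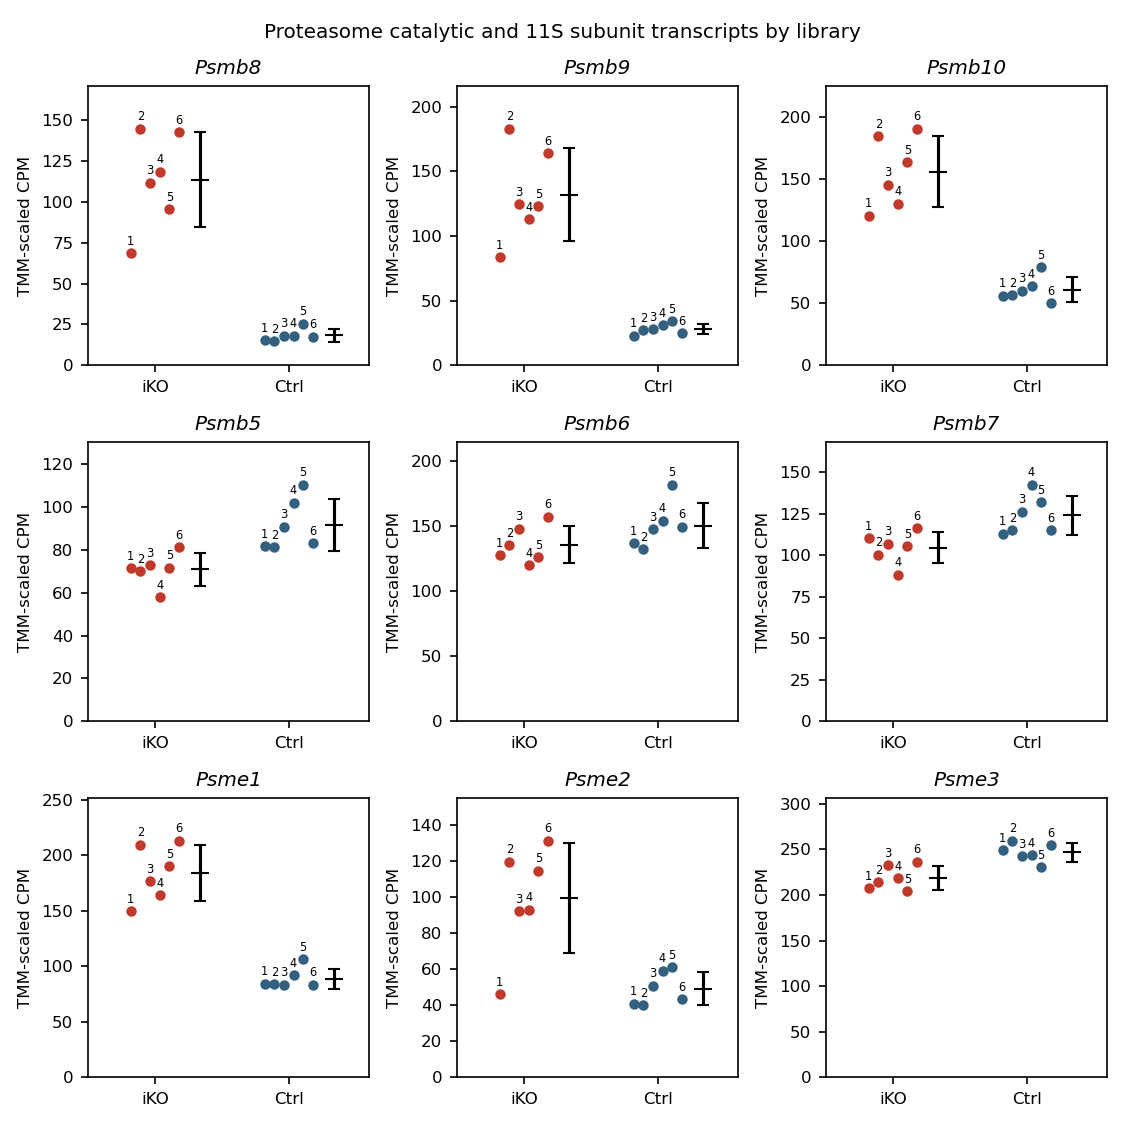
Level of each of the 9 transcripts in TMM-scaled CPM (vertical axis, from 0) in the iKO and Ctrl libraries; points are libraries with their number, and the bar is the mean with the SD of 6. The iKO points lie above all Ctrl points for Psmb8, Psmb9, Psmb10 and Psme1 and below them for Psmb5, while iKO 1 alone among iKO libraries lies within the Ctrl range for Psme2.

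Because both counts of a pair come from the same library, their ratio needs no library scaling. Every pair shifted toward its inducible member, most in the β5 pair and least in the β2 pair. For β5, Psmb8 counts per Psmb5 count were 0.957, 2.07, 1.54, 2.05, 1.34 and 1.75 in iKO 1 to 6, against 0.189, 0.183, 0.200, 0.179, 0.231 and 0.212 in Ctrl 1 to 6. Psmb8 had more counts than Psmb5 in 5 of 6 iKO libraries and in no Ctrl library. Counts also grow with gene length, which is 2736 bases for Psmb8 and 899 for Psmb5. Per kb of this length, Psmb8 made up 23.9 to 40.5% of the pair in iKO. The mean log2 ratio was higher by 2.98 in iKO (95% interval 2.56 to 3.37), which is 7.89-fold (two-sided exact permutation test of all ways to divide the libraries, p = 0.00216, the smallest they can give, adjusted over 13 ratio comparisons to 0.00281).

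For β1, Psmb9 counts per Psmb6 count were 0.656, 1.35, 0.844, 0.944, 0.981 and 1.05 in iKO 1 to 6, against 0.169, 0.205, 0.189, 0.202, 0.188 and 0.166 in Ctrl 1 to 6. The inducible transcript approached the count of its partner in most iKO libraries and passed it in iKO 2 and iKO 6. The log2 difference was 2.35 (95% interval 2.02 to 2.68), or 5.10-fold (exact permutation test, adjusted p = 0.00281). For β2, Psmb10 counts per Psmb7 count were 1.10, 1.84, 1.36, 1.48, 1.56 and 1.64 in iKO 1 to 6, against 0.499, 0.492, 0.478, 0.450, 0.600 and 0.435 in Ctrl 1 to 6. Here the inducible transcript had more counts than its partner in every iKO library and in no Ctrl library. This does not hold per length, a scale described below. With the gene length of the table, Psmb10 made up 54.6% of the pair in Ctrl 5. With the principal transcript length it made up 49.2% in iKO 1. The log2 difference was 1.59 (95% interval 1.30 to 1.86), or 3.02-fold (exact permutation test, adjusted p = 0.00281).

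The pairs did not shift by equal amounts. The shift of the β5 pair exceeded that of the β1 pair by 0.63 on the log2 scale (95% interval 0.32 to 0.94) and that of the β2 pair by 1.39 (1.13 to 1.66). The β1 pair shifted more than the β2 pair by 0.76 (0.56 to 0.96), and for each of these differences the exact permutation test gave an adjusted p of 0.00281. Among the inducible transcripts, Psmb9 per Psmb8 changed by -0.41 (95% interval -0.62 to -0.20) and Psmb10 per Psmb8 by -1.26 (-1.54 to -0.98; exact permutation test, adjusted p = 0.00281 for both). Among the constitutive ones, Psmb5 fell relative to both others: Psmb6 per Psmb5 changed by 0.22 (0.10 to 0.34; exact permutation test, adjusted p = 0.00703) and Psmb7 per Psmb5 by 0.12 (0.05 to 0.22; adjusted p = 0.00281). With the leukocyte covariate, described further on, the shift of the β5 pair exceeded that of the β1 pair by 0.29, Psmb9 per Psmb8 changed by -0.13, Psmb10 per Psmb8 by -0.87 and Psmb7 per Psmb5 by 0.33.

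**Figure D2:**
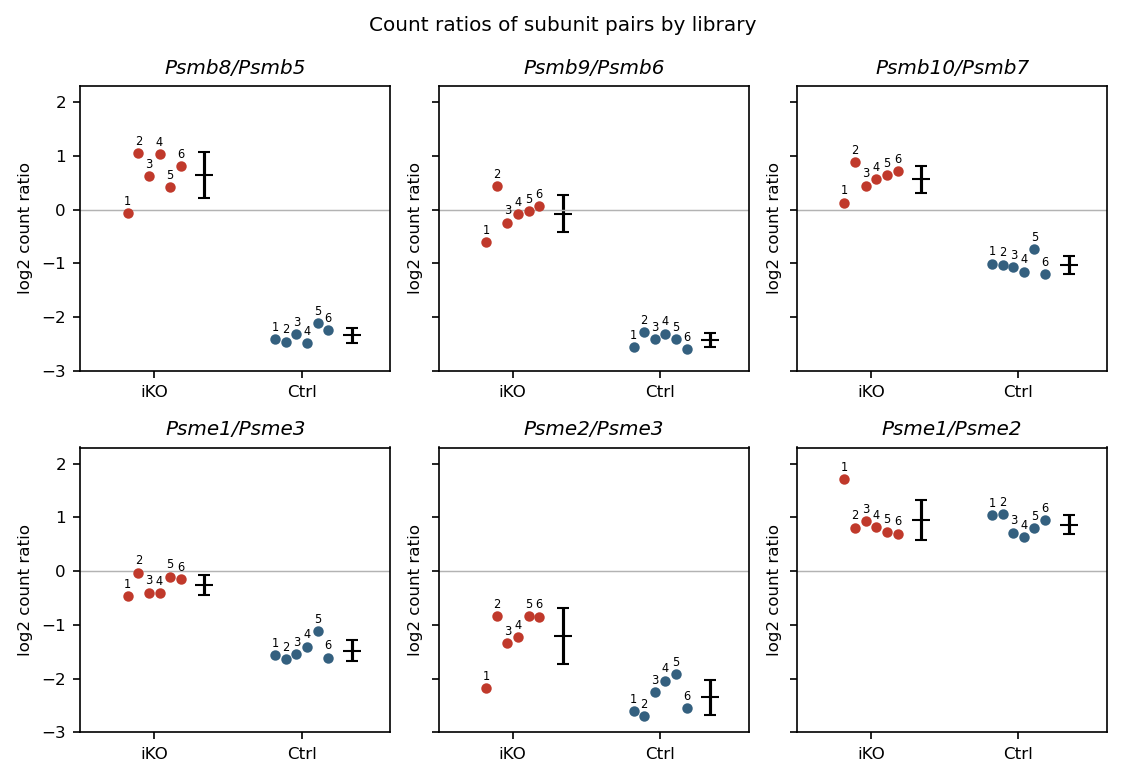
Log2 ratio of the counts of paired transcripts in each library (vertical axis, same scale in all panels; 0 means equal counts) in iKO and Ctrl; points are libraries with their number, and the bar is the mean with the SD of 6. The 3 catalytic pairs and Psme1/Psme3 separate the groups fully, Psme2/Psme3 overlaps through iKO 1, and Psme1/Psme2 does not separate them.

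Levels of different genes compare only per length. With counts divided by the gene length of the table, Psmb8 made up 34.2 ± 6.34% of the β5 pair in iKO and 6.13 ± 0.571% in Ctrl (SD, n = 6 each). Psmb9 made up 32.8 ± 5.22% of the β1 pair in iKO and 8.70 ± 0.697% in Ctrl. Psmb10 made up 74.6 ± 3.43% of the β2 pair in iKO and 49.5 ± 2.81% in Ctrl. On this scale β2i was thus the largest share of its pair in both groups, and the share of every pair differed between groups without overlap: 23.9 to 40.5% in iKO against 5.57 to 7.06% in Ctrl for β5, 25.1 to 40.9% against 7.82 to 9.51% for β1, and 68.7 to 78.7% against 46.6 to 54.6% for β2. The size of a share rests on the length used. With the length of each gene's principal transcript in GENCODE M21, chosen as an alternative after the values were seen, the β5 share was 46.4% in iKO and 9.89% in Ctrl, the β1 share 36.0% in iKO and 9.91% in Ctrl, and the β2 share 56.6% in iKO and 30.3% in Ctrl.

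The summed level of a pair depended on the length too. Per kb of table length the β5 pair summed to 120 ± 14.4 CPM in iKO and 108 ± 14.7 CPM in Ctrl, the β1 pair to 109 ± 15.3 CPM in iKO and 87.9 ± 10.2 CPM in Ctrl, and the β2 pair to 122 ± 17.98 CPM in iKO and 72.1 ± 8.57 CPM in Ctrl (SD, n = 6 each). Per kb of principal transcript the β5 pair summed to 148 CPM in iKO and 113 CPM in Ctrl, the β1 pair to 268 CPM in iKO and 209 CPM in Ctrl, and the β2 pair to 209 CPM in iKO and 154 CPM in Ctrl. The higher sum in iKO was thus seen with both lengths, whereas how far the pairs differed from each other rested on the length. No sum was tested.

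Leukocytes carry immunoproteasomes, and their RNA was higher in iKO, so the ratios were read beside the leukocyte score. The most alike libraries of the 2 groups on this measure were iKO 1, with a score of 4.01, and Ctrl 5, with 4.19, which also had near-equal pigment cell sums of 21454 and 21548 CPM. Psmb8 was at 68.4 CPM in iKO 1 and 25.5 CPM in Ctrl 5, with 0.957 and 0.231 Psmb8 counts per Psmb5 count. Psmb9 per Psmb6 was 0.656 in iKO 1 and 0.188 in Ctrl 5, and Psmb10 per Psmb7 was 1.10 in iKO 1 and 0.600 in Ctrl 5. These libraries were not alike in every marker list: T cell markers summed to 24.0 CPM in iKO 1 and 12.5 CPM in Ctrl 5, and macrophage markers to 249.7 CPM in iKO 1 and 444 CPM in Ctrl 5. With 1 library from each group, chosen by the score, these values are a description without a test. Within the Ctrl group, the score of Ctrl 5 was the highest and its Psmb8/Psmb5 and Psmb10/Psmb7 ratios were the highest as well, while its Psmb9/Psmb6 ratio lay among the others.

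With the leukocyte score added to the edgeR model as a covariate, the inducible subunits stayed higher by smaller amounts. The log2 fold change became 1.56 for Psmb8 (edgeR, adjusted p = 0.00324), 1.44 for Psmb9 (0.0156), 0.69 for Psmb10 (0.0494) and 0.56 for Psme1 (0.0322), and that of Psmb5 became -0.65 (0.0333). Psmb7, at -0.32 (edgeR, adjusted p = 0.235), and Psme3, at -0.14 (0.525), lost their calls with fold changes of similar size to before. Psme2 lost its call and turned negative, at -0.29 (0.675). The covariate did not level all leukocyte markers. T cell and cytotoxic lymphocyte markers kept a median log2 fold change of 1.40, against 6.88 without it, and 1 was called higher. The median of the macrophage and monocyte markers became -0.40. Macrophage and monocyte markers summed to 249.7 to 2269 CPM in iKO and 16.6 to 444 CPM in Ctrl, with 9 of 10 higher, and dendritic cell markers to 14.0 to 119.5 CPM in iKO and 7.73 to 16.5 CPM in Ctrl, with 4 of 5 tested higher. B cell markers summed to 3.62 to 35.7 CPM in iKO and 0.264 to 2.98 CPM in Ctrl, with 2 of 3 tested higher and Ms4a1 at 0 in all Ctrl libraries. The higher macrophage, dendritic cell and B cell markers were counted without the covariate, where 25.0% of all tested genes were called higher. The score differs between the groups nearly without overlap, so this model divides a shared difference between 2 terms. It also called fewer of the 16164 tested genes, 910 higher and 974 lower, against 4037 and 3464 without the covariate. How much of the shift came from leukocytes and how much from melanoma cells was not tested.

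**Figure D3:**
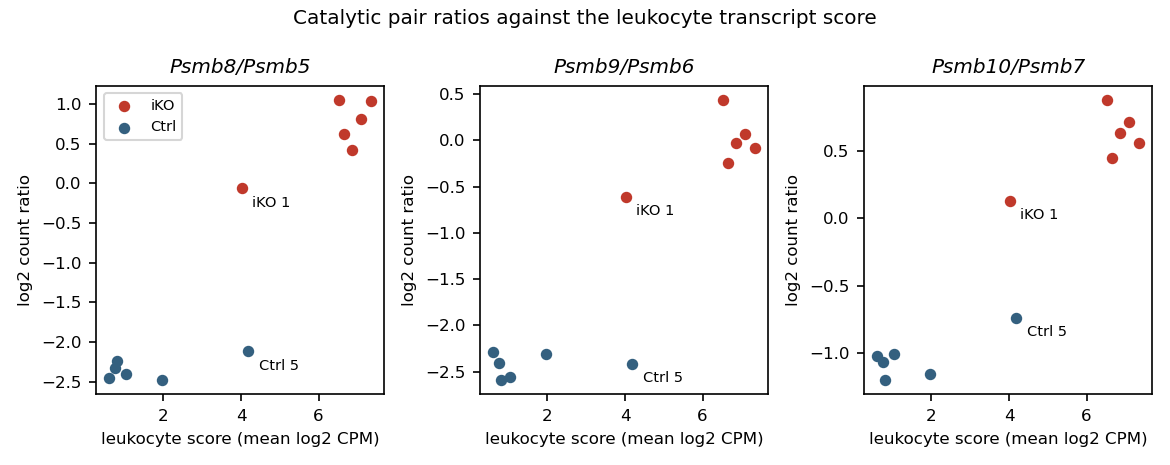
Log2 count ratio of each catalytic pair (vertical axis) against the leukocyte score, the mean log2 CPM of 12 leukocyte markers (horizontal axis). Each point is an iKO or Ctrl library, and only iKO 1 and Ctrl 5 are named. The iKO points lie above the Ctrl points in every panel, including iKO 1 and Ctrl 5, whose scores of 4.01 and 4.19 are alike.

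The interferon-inducible 11S subunits rose, Psme1 by 2.07-fold and Psme2 by 2.02-fold, while Psme3 fell slightly. Psme1 (ENSMUSG00000022216, mm10 chromosome 14, 55578123 to 55581529, plus strand) encodes PA28α. It had 150, 210, 177, 164, 191 and 213 CPM in iKO 1 to 6, against 84.4, 83.8, 83.5, 92.1, 106 and 83.4 CPM in Ctrl 1 to 6. The groups did not overlap. The means were 184 ± 25.1 CPM in iKO and 88.9 ± 9.17 CPM in Ctrl (SD, n = 6 each), a log2 fold change of 1.05 ± 0.09 (SE; edgeR, adjusted p = 2.06e-06). Its window (RefSeq, GRCm38.p6, chr14:55578244-55578543, plus strand) is shown because it holds the only interferon-stimulated response element core found among the windows of these genes, in capitals.
Psme1: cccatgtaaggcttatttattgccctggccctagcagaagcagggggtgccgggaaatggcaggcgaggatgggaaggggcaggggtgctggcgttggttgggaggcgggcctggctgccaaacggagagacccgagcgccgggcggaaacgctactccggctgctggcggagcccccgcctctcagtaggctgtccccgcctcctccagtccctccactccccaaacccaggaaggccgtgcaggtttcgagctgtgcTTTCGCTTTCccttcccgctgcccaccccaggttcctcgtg
The match TTTCGCTTTC reads GAAAGCGAAA on the other strand and begins 10 bases after the RefSeq start. A match to this core occurs in 1126 of 32817 windows (3.43%). Windows were found for 8 of the 9 genes, Psmb7 being the exception, and no match to either motif occurred in those of Psmb9, Psmb10, Psmb5, Psmb6, Psme2 and Psme3.

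Psme2 (ENSMUSG00000079197, mm10 chromosome 14, 55587441 to 55591113, minus strand) encodes PA28β. It had 46.0, 120, 92.4, 93.0, 115 and 131 CPM in iKO 1 to 6, against 41.0, 40.1, 50.8, 59.3, 61.1 and 43.4 CPM in Ctrl 1 to 6. The groups overlapped through iKO 1 alone, which lay below Ctrl 3, 4 and 5. The means were 99.5 ± 30.3 CPM in iKO and 49.3 ± 9.28 CPM in Ctrl (SD, n = 6 each), a log2 fold change of 1.02 ± 0.22 (SE; edgeR, adjusted p = 0.00339).

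The value of iKO 1 goes together with a copy of the gene. Psme2b (mm10 chromosome 11, 48945354 to 48946190, minus strand) is a retrogene of Psme2, and 789 of 794 aligned transcript bases (99.4%) are identical. Of the 50-base windows of the Psme2 transcript, 541 of 913 (59.3%) occur unchanged in Psme2b, so short reads from one can be counted in the other. Psme2b had 83.8, 66.8, 69.2, 58.3, 71.4 and 80.6 CPM in iKO 1 to 6, against 22.7, 28.8, 23.0, 30.7, 32.6 and 27.3 CPM in Ctrl 1 to 6. In iKO 1 it took 64.6% of the counts of both genes, whereas it took 35.8 to 42.8% in the other iKO libraries and 31.2 to 41.8% in Ctrl. The sum of both genes was 130, 187, 162, 151, 186 and 212 CPM in iKO 1 to 6, against 63.6, 68.8, 73.8, 90.0, 93.7 and 70.6 CPM in Ctrl 1 to 6. The sums did not overlap. With the summed counts and the leukocyte covariate the log2 fold change was 0.48 (edgeR, adjusted p = 0.140), against -0.29 for Psme2 alone. No 50-base window was shared between the members of a catalytic pair or among Psme1, Psme2 and Psme3.

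**Figure D4:**
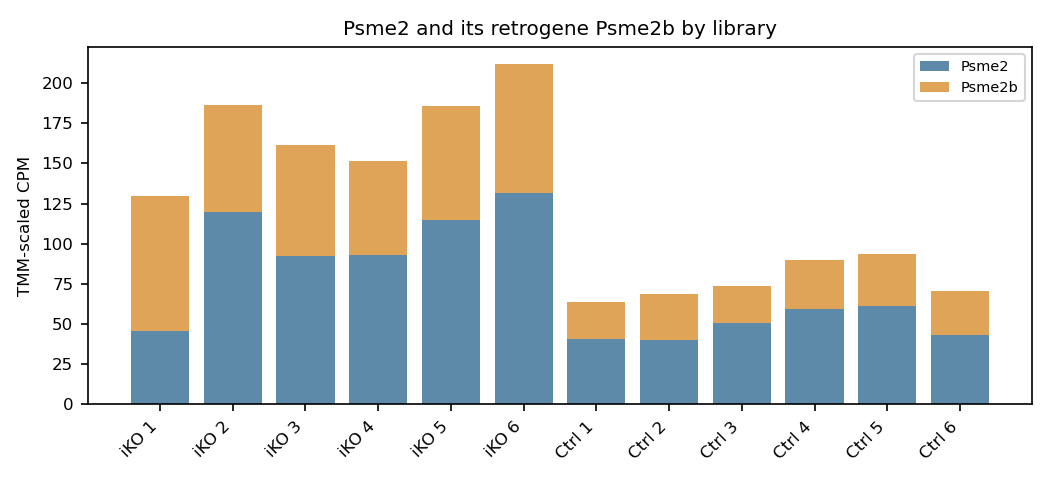
Stacked TMM-scaled CPM (vertical axis, from 0) of Psme2 and its retrogene Psme2b in each iKO and Ctrl library. The division between the genes differs in iKO 1, where Psme2b takes 64.6%, while the stacked sums of 130 to 212 CPM in iKO lie above the 63.6 to 93.7 CPM in Ctrl.

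Psme3 (ENSMUSG00000078652, mm10 chromosome 11, 101316213 to 101323537, plus strand), which encodes PA28γ, ranged from 204 to 237 CPM in iKO (median 216) and from 231 to 260 CPM in Ctrl (median 247). The ranges overlapped at their ends. Its means of 219 ± 13.3 CPM in iKO and 247 ± 10.2 CPM in Ctrl (SD, n = 6 each) gave a log2 fold change of -0.17 ± 0.05 (SE; edgeR, adjusted p = 0.0153). Psme1 counts per Psme3 count ranged from 0.723 to 0.979 in iKO (median 0.829) and from 0.323 to 0.460 in Ctrl (median 0.341). The log2 difference was 1.22 (95% interval 0.96 to 1.48; exact permutation test, adjusted p = 0.00281), and the groups did not overlap. Psme2 per Psme3 ranged from 0.222 to 0.561 in iKO (median 0.490) and from 0.154 to 0.265 in Ctrl (median 0.190), a log2 difference of 1.14 (0.57 to 1.65; exact permutation test, adjusted p = 0.00703). The groups overlapped through iKO 1, and with the leukocyte covariate this difference reversed to -0.17. Psme1 per Psme2, the ratio within the mixed ring, had a log2 difference of 0.083 (95% interval -0.24 to 0.47; exact permutation test, adjusted p = 0.784). This interval allows unequal changes of either sign, so the data do not show that both subunits changed equally. The difference was -0.057 between group medians and 0.86 with the leukocyte covariate. With Psme2b counts added to those of Psme2, the values under that covariate were 0.62 for Psme2 per Psme3 and 0.074 for Psme1 per Psme2.

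No other subunit of the 20S core or the 19S regulator was called higher with the inducible ones. Of the 11 other 20S core subunits, which form the barrel without active sites, none rose and 3 fell, with a median log2 fold change of -0.13, beside 0.023 over all tested genes. A count of 3 in 11 is near the 21.4% of all tested genes called lower. Psmb4 changed by -0.23, Psmb3 by -0.19 and Psma1 by -0.17 (edgeR, adjusted p between 0.0255 and 0.0262). Of the 19 subunits of the 19S regulator, which binds and unfolds ubiquitin-tagged proteins, 12 fell and none rose, with a median of -0.22. Psmd6, a scaffold subunit of its lid, averaged 77.2 ± 4.85 CPM in iKO and 99.9 ± 6.55 CPM in Ctrl (SD, n = 6 each), a log2 fold change of -0.37 by edgeR (adjusted p = 0.000227). Sem1, the smallest lid subunit, changed by -0.53 (edgeR, adjusted p = 0.00276) and the ATPase subunit Psmc1 by -0.27 (0.00409). These falls were close in size to those of Psmb5 and Psmb7. At an unadjusted p under 0.05 the count of higher genes was 0 in both lists, and so it was by DESeq2 and by limma. These counts moved with the libraries and the model. Without 1 library, 0 20S subunits were lower when iKO 4, Ctrl 3, Ctrl 4 or Ctrl 5 was left out and 5 when Ctrl 1 was. Lower 19S subunits numbered 7 without Ctrl 3, 6 without Ctrl 4 and 6 without Ctrl 5, where 1 was higher. No 20S subunit was called with replicate number as a block or without both iKO 1 and Ctrl 5. With the leukocyte covariate 1 of the 20S and 3 of the 19S subunits were lower, beside 974 of all 16164 tested genes in that model. The medians were -0.36 and -0.32, further from 0 than without it.

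Of 8 measured assembly chaperones, which help core and regulator to form, 7 fell and none rose, with a median log2 fold change of -0.31. Over all tested genes, 21.4% were called lower. Psmd9 changed by -0.32 (edgeR, adjusted p = 0.00105), Psmg2 by -0.42 (0.00328) and Psmd5 by -0.28 (0.00357). With the leukocyte covariate 2 were called lower, beside 974 of all 16164 tested genes in that model, with a median of -0.52. Among 6 other regulators, Ecpas, a proteasome-binding scaffold, was higher by 0.29 (edgeR, adjusted p = 0.00170), the deubiquitinase Uchl5 changed by -0.43 (0.000498) and Akirin2, an importer of proteasomes into the nucleus, by -0.24 (0.00765). Of 4 genes that control proteasome transcription, Ddi2, the protease that activates Nfe2l1, was higher by 0.43 (edgeR, adjusted p = 0.00187) and Nfe2l2 by 0.21 (0.00475). Psma8 of testis and Psmb11 of thymus, subunits restricted to those tissues, had at most 0.951 CPM together in any library and were not tested.

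**Figure D5:**
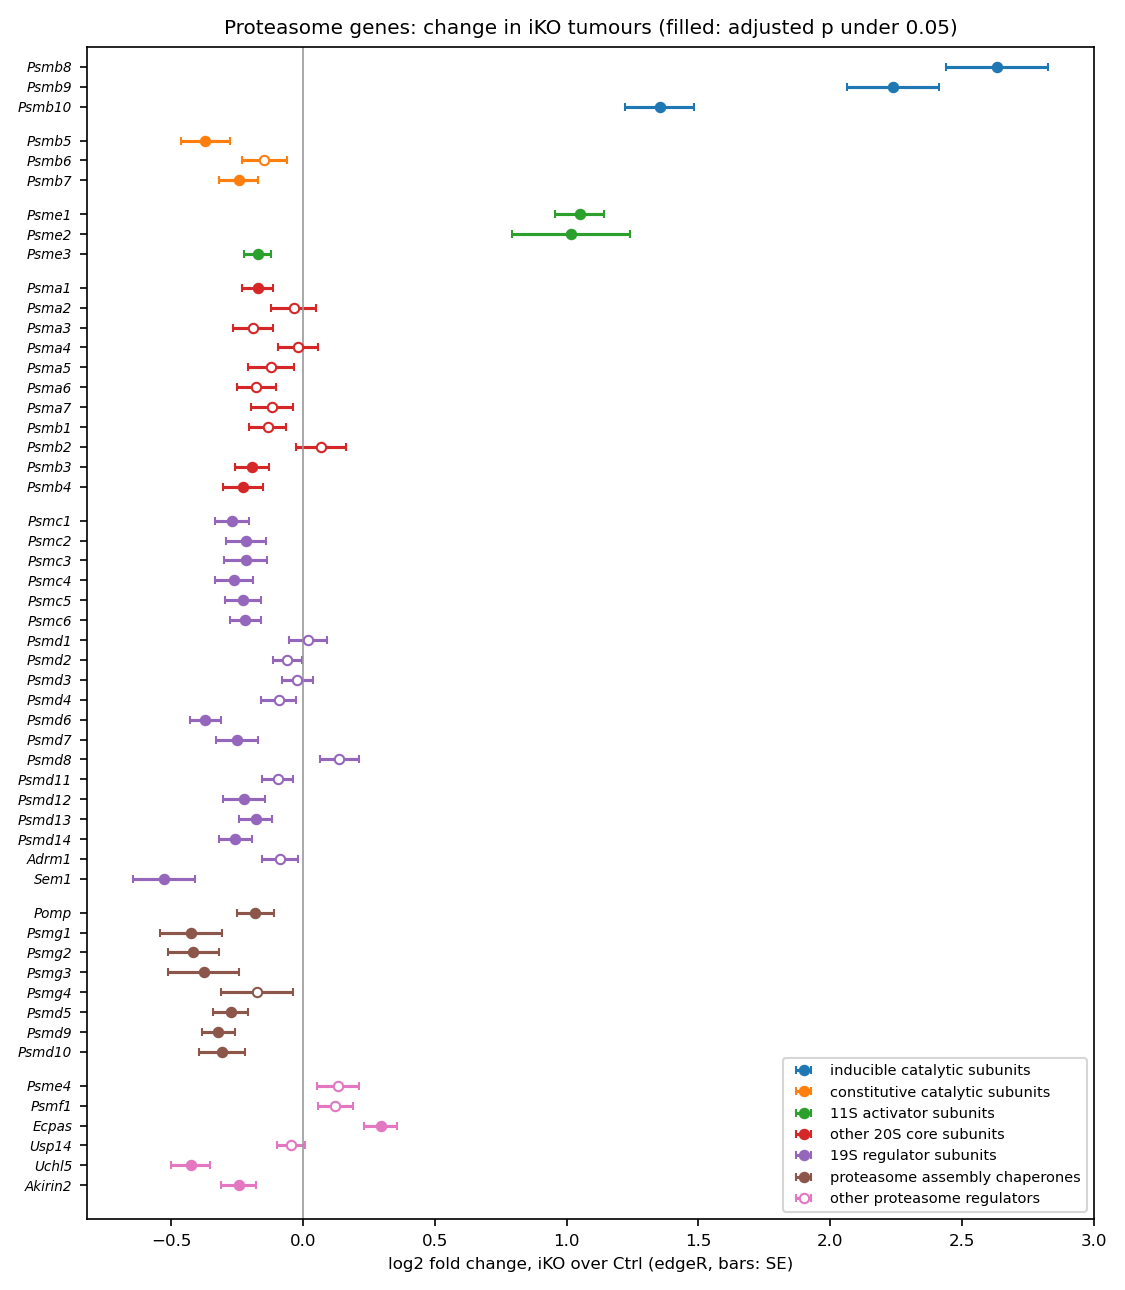
Log2 fold change of iKO over Ctrl with its SE (horizontal axis; edgeR) for the proteasome genes, grouped by role from top to bottom; filled points passed an adjusted p under 0.05. Psmb8, Psmb9, Psmb10, Psme1 and Psme2 lie between 1.02 and 2.63, while the other 20S subunits, the 19S subunits and the chaperones lie near or below 0.

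Among genes that handle peptides after the proteasome, members of both lists moved in both directions. Of 7 cytosolic peptidases, which trim or destroy peptides, 1 was called higher and 2 lower. These counts are near the 25.0% of all tested genes called higher and the 21.4% called lower. Lap3, an interferon-inducible aminopeptidase, was higher by 0.39 (edgeR, adjusted p = 0.00262), while Thop1 changed by -0.35 (0.000371) and Blmh by -0.33 (0.000740). Of 11 genes of class I loading, 8 rose and 3 fell, beside the same 25.0% and 21.4%, with a median log2 fold change of 1.62. Tap1 averaged 379 ± 76.5 CPM in iKO and 75.3 ± 3.57 CPM in Ctrl (SD, n = 6 each), 2.33 higher on the log2 scale (edgeR, adjusted p = 1.66e-08). Erap1, the trimming aminopeptidase of the endoplasmic reticulum, was higher by 1.46 (edgeR, adjusted p = 2.69e-08) and B2m, the light chain of class I molecules, by 1.41 (3.23e-08). The 3 that fell were Calr, Pdia3 and Canx, which fold many glycoproteins: Calr changed by -0.27 (edgeR, adjusted p = 0.00130), Pdia3 by -0.27 (0.00258) and Canx by -0.34 (0.00261). With the leukocyte covariate 8 were still called higher and none lower, beside 910 higher and 974 lower of all 16164 tested genes in that model.

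Of 13 genes of interferon signalling, 12 rose and none fell, beside 25.0% of all tested genes called higher, with a median log2 fold change of 1.26. Irf9, a transcription factor of the interferon response, rose by 1.27 (edgeR, adjusted p = 5.92e-08) and Nlrc5, the transactivator of class I genes and of Psmb9, by 2.39 (9.01e-08). With the leukocyte covariate 6 of the 13 were called higher, beside 910 of all 16164 tested genes in that model. T cell and cytotoxic lymphocyte markers, whose cells secrete interferon-γ, summed to 24.0 to 328 CPM in iKO and 3.93 to 12.5 CPM in Ctrl, with all 11 higher. Whether these cells account for the rise of the interferon signalling genes was not tested.

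Likeness of pattern was measured as the root-mean-square difference of centred log2 CPM over the 12 libraries, among 12410 protein-coding genes. The genes most like the mean of Psmb8, Psmb9 and Psmb10 were the class I heavy chain gene H2-K1 (0.105), the transporter subunit gene Tap2 (0.139), the class I genes H2-D1 (0.147) and H2-T22 (0.150) and the receptor transporter gene Rtp4 (0.152), where the median gene differed by 1.11. Those most like the mean of Psmb5, Psmb6 and Psmb7 were Sap18 (0.0388), the 20S subunit gene Psmb4 (0.0449), Taf11 (0.0477), 2610001J05Rik (0.0495) and Eif3g (0.0499), with a median of 0.272. Both sets were ranked on all 12 libraries, so their likeness includes the difference between iKO and Ctrl.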

How the data were processed

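Poly-A RNA of sorted tumour tissue was sequenced in 6 iKO and 6 Ctrl libraries, in 1 sequencing batch and without keeping strand, per the labels' protocols. The authors deposited raw counts of reads per gene, without normalization, and the deposited gene length was used only to compare levels between genes. Per the submitters' processing notes, reads were placed on mm10. The sources used here name no aligner or counting program. The library source is labelled single cell, but the table held 1 column per tumour library and was analysed as bulk. The labels do not tie libraries to mice, so every p-value reflects spread between libraries that may be technical. Chi-square per degree of freedom between libraries of a group was at least 27.9 in iKO and 7.47 in Ctrl. Libraries thus differed by more than counting error, and each counted as 1 replicate. This check cannot tell tumours from both legs of 1 mouse from tumours of different mice, so the number of hosts behind each group of 6 is not known. A count of 0 allows up to 3 counts, 0.0655 to 0.101 CPM, which covers counting error only.

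All genes were fitted together with edgeR 4.0.16 in R 4.3.3 (quasi-likelihood test, robust, TMM scaling, group as the only term, minimum count 10, minimum total 15), with Benjamini-Hochberg adjustment over 16164 genes and a threshold of 0.05. Each SE is approximate, the log2 fold change divided by the square root of F. Ratios of counts were compared by exact two-sided permutation tests over all assignments of the libraries, adjusted over 13 comparisons, and their 95% intervals come from inverting that test. Exon overlaps and transcripts were taken from GENCODE M21 and promoter windows from RefSeq (GRCm38.p6). The edgeR test was also run on counts simulated around Ctrl mean levels, with the spread of each gene drawn on its own. Spread shared by many genes, such as that from leukocyte RNA, was not simulated, so that run does not bear on it. The members and gene lists were chosen with earlier results of these data known, and lists are described by counts and medians without a set test. The genes named are the 9 members, up to 3 genes with the smallest p in each direction of each list (marker lists are given by their sums, with Ptprc), copies of members, and the 5 genes most like each catalytic class with a mean of at least 1 CPM. Some genes that met this rule are left out here and were not replaced. Alternatives were RLE scaling, DESeq2 1.42.0, limma 3.58.1, no filter, replicate block, a leukocyte covariate, omitted libraries, group medians, 0.5 counts added to each count, summed Psme2 and Psme2b counts and another transcript length, the last 2 of these chosen after seeing the data.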

Additional observations from a re-analysis of the deposited data

Results flagged for a closer look

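Within each group of 6 libraries, the highest or lowest value stood apart from the others by Dixon's criterion in 6 of 48 groups of values; chance alone gives about 1 in 20, or 2.4 here. In iKO 1 the log2 ratio of Psme2 to Psme3 was -2.17, with the other iKO libraries at -1.33 to -0.83, and the log2 ratio of Psme1 to Psme2 was 1.70, with the others at 0.70 to 0.93. The share of Psme2b in the counts of Psme2 and Psme2b was 64.6% in the same library, with the others at 35.8 to 42.8%. These 3 values share the low Psme2 count of iKO 1. In Ctrl 5, the Ctrl library with the most leukocyte RNA, Psmb8 was at 25.5 CPM, with the other Ctrl libraries at 14.8 to 18.3 CPM, and the log2 ratio of Psmb7 to Psmb5 was 0.26, with the others at 0.47 to 0.50. In iKO 2 the log2 ratio of Psmb9 to Psmb6 minus that of Psmb10 to Psmb7 was -0.44, with the other iKO libraries at -0.74 to -0.64.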

How the results depend on the processing

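RLE scaling, DESeq2, limma, group medians and 0.5 added counts kept the direction and the side of the threshold of all 9 transcripts and of the ratios to which they were applied, except that Psme1/Psme2, not called in either case, was -0.057 between group medians. Of the marker lists, DESeq2 called 3 fibroblast markers higher, and DESeq2 and limma each called 1 keratinocyte marker higher. With no filter, 6 of the other 20S subunits were lower and 1 gene of the proteasome regulators of transcription was higher. The replicate numbers do not pair the libraries: correlations of same-numbered deviations ran from -0.13 to 0.25, and only iKO 5 correlated best with its own number. With the replicate block Psmb7 was at -0.24 (edgeR, adjusted p = 0.0555) and no other 20S subunit was called. Omitting iKO 2 and iKO 3, which had Xist RNA, left Psmb7 at -0.24 (edgeR, adjusted p = 0.0509). Omitting iKO 1 and Ctrl 5 left 0 lower 20S subunits, 1 higher and 7 lower 19S subunits and 1 lower gene among the regulators of transcription.

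With the leukocyte covariate the log2 fold change was -0.32 for Psmb7, -0.29 for Psme2 (reversed, edgeR, adjusted p = 0.675) and -0.14 for Psme3, so that 1 of the 9 was lower. Over all 16164 tested genes 910 were higher and 974 lower. Of the lists, 1 other 20S subunit, 3 19S subunits and 2 chaperones were lower, 2 other regulators were higher and 0 lower, 0 regulators of transcription were higher, 0 peptidases were called in either direction, 0 class I genes were lower and 6 interferon signalling genes were higher. The medians of the peptidases (-0.036), macrophage markers (-0.40) and endothelial markers (-0.18) turned negative. That of the T cell and cytotoxic lymphocyte markers was 1.40. The log2 ratios became 2.20 for Psmb8/Psmb5, 1.91 for Psmb9/Psmb6, 1.01 for Psmb10/Psmb7, 0.69 for Psme1/Psme3, -0.17 for Psme2/Psme3 (reversed), 0.86 for Psme1/Psme2, -0.13 for Psmb9/Psmb8, -0.87 for Psmb10/Psmb8, 0.33 for Psmb7/Psmb5 and 0.29 for the β5 pair minus the β1 pair. With Psme2 and Psme2b summed as well, Psme2 was at 0.48 and its ratio to Psme3 at 0.62. With principal transcript length the inducible share was 46.4% in iKO and 9.89% in Ctrl for β5, 9.91% in Ctrl for β1, and 56.6% in iKO and 30.3% in Ctrl for β2. The cause of these changes was not tested. Leaving out 1 library at a time moved Psmb7 between -0.28 and -0.18, lower 20S subunits between 0 and 5, lower 19S subunits between 6 and 12, higher 19S subunits between 0 and 1, higher other regulators between 1 and 2, lower regulators of transcription between 0 and 1, and lower members between 2 and 3.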
